A study of Mus musculus with 8 samples.

Results

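The genes of the proteasome subunits and their helpers were followed through RNA-seq counts of sorted mouse blood stem cells. They were taken as the gene symbols beginning with Psma to Psmg and ending in a number, with 10 or more counts in 3 or more libraries. Of 48 such symbols in a table of 23358 genes, 47 met the count rule. The symbol left out was Psmb11, the thymus-specific catalytic subunit, with 0 counts in every library. The lowest count among the 47 was 10, in 1 library, for Psma8, and the next lowest minimum was 255, for Psmg4. All 47 genes were among the 14086 that passed the filter on low counts and were tested.

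The cells were hematopoietic stem cells from mouse bone marrow, collected straight after sorting for the surface phenotype Lin-Sca+Kit+CD48-CD150+. The 8 libraries comprised 3 with the genotype label wild type, 3 labelled Huwe1 KO (Mx1-Cre), in which Cre acts after induction, and 2 labelled Huwe1 KO (Vav-Cre), in which Cre is active constitutively in blood cells. Huwe1 encodes a very large ubiquitin ligase, an enzyme that attaches ubiquitin chains to proteins. The labels give treatment as none for all groups and name no Cre for wild type, and age, sex, strain and inducing agent are not stated in them. Mx1-Cre is driven by an interferon-responsive promoter, which is active in many cell types, and Vav-Cre by a promoter active across the blood lineage. The effect of the Cre line or of an inducing agent therefore cannot be told apart from that of Huwe1 loss. The labels do not tie the libraries of a group to separate mice. A p-value here therefore reflects only how far these samples spread, which may be technical.

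The proteasome is the particle that degrades proteins marked with ubiquitin. Its core is a stack of rings, with alpha subunits (Psma) forming the gate and beta subunits (Psmb) carrying the cutting sites. A regulatory particle on top of the core, made of ATPases (Psmc) that unfold and thread the substrate and of non-ATPases (Psmd) that bind and remove ubiquitin, prepares substrates for the core. Interferon induces the catalytic subunits Psmb8, Psmb9 and Psmb10, which replace Psmb5, Psmb6 and Psmb7 to make the immunoproteasome, whose products feed antigen presentation. Activators (Psme) open the core without the regulatory particle, Psmf1 encodes an inhibitor of the core, and the Psmg genes encode chaperones that assemble the core rings. Blood stem cells are known for low protein synthesis and for depending on protein quality control.

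RefSeq promoter windows (GRCm38.p6), each spanning 250 bases before to 50 bases after a transcription start, were found for 39 of the 47 genes, in 42 windows. Shown are the windows of the inducible subunits Psmb8 (chr17:34197945-34198244, plus strand) and Psmb9 (chr17:34187281-34187580, minus strand), whose folds were positive in both lines labelled knockout, of Psmd4 (chr3:95042565-95042864, minus strand), which had the smallest p in Mx1-Cre libraries, and of Psmd11 (chr11:80428365-80428664, plus strand), whose libraries lay on opposite sides of wild type in the 2 lines with TMM scaling. Each is written 5′ to 3′ on the strand of its gene, and capitals mark a match on either strand to 1 of the 4 motifs described after them.
Psmb8: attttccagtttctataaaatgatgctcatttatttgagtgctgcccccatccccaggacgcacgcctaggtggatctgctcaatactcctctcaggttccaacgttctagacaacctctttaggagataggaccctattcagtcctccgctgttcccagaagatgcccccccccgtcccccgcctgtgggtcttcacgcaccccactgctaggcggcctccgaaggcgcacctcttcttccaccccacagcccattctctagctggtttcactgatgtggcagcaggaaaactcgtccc
Psmb9: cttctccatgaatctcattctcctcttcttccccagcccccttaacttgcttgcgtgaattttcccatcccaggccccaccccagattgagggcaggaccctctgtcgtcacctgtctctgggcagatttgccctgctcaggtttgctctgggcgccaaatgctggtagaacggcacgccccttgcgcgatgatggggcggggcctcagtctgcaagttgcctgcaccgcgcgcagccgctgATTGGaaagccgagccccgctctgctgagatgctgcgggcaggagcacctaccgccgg
Psmd4: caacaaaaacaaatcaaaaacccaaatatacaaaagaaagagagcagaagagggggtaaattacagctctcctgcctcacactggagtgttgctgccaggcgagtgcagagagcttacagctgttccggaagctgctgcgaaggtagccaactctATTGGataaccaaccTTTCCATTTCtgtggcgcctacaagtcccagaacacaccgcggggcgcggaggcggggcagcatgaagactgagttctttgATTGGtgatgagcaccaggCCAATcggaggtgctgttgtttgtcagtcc
Psmd11: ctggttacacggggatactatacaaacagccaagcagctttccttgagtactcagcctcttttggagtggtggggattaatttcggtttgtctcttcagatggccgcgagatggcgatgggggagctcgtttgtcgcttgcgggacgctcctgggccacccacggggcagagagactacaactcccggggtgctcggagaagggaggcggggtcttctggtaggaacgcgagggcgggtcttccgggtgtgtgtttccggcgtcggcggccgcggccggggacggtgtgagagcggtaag

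The first motif was CCAAT, which the factor NF-Y binds. The second was the E-box, with the letters CACGTG. The third was TGACNNNGC, the core of the antioxidant response element through which the Nfe2l1 product drives proteasome genes. The last was the core of the interferon-stimulated response element, TTTC repeated after a gap of any 2 bases. Both strands were searched, and none of the 4 motifs contains another, although neighbouring matches may overlap. Psmd4 held 3 CCAAT matches, starting at positions -95, 2 and 21 from the transcription start, and an interferon-stimulated response element core at -80. Psmb9 held a CCAAT match at -8, and Psmb8 and Psmd11 held none of the 4. Among the 42 windows the interferon-stimulated response element core was present in 11.9%, against 3.44% of all 32851 windows of the same length, and its genes were Psmb3, Psmd4, Psmd9, Psme1 and Psmg4. TGACNNNGC was present in 14.3% against 12.4% of all windows, in the genes Psmb5, Psmb6, Psmc6, Psmd12, Psmd9 and Psme4. CCAAT was present in 31% against 37.4%, and CACGTG in 9.52% against 7.15%. These are letter matches in 1 window per start and not measured binding sites.

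Huwe1 itself had 434, 398 and 433 CPM in wild type libraries, 444, 399 and 411 in those of Mx1-Cre, and 445 and 490 in those of Vav-Cre, with folds of -0.01 ± 0.11 and 0.15 ± 0.13 on the log2 scale (SE, edgeR adjusted p = 0.979 and 0.682). Neither fold passed, and the transcript count was not lower in either line. Both Vav-Cre libraries lay above all wild type libraries, as they did for 15.6% of all tested genes, and the Mx1-Cre libraries overlapped wild type. Counts over a whole gene cannot show whether deleted exons were lost, so the knockout stands on the labels alone. Total counts were 28689765 to 33202926 per library and TMM factors, which correct for composition, 0.961 to 1.03. Levels below are CPM after this scaling, the usual read count divided by the scaled depth of its library. All 10 stem cell markers were detected, summing to 4680 to 5700 CPM in wild type libraries, 3080 to 5830 in those of Mx1-Cre and 4660 to 5040 in those of Vav-Cre, with 3 of the 10 lower in Mx1-Cre and 1 in Vav-Cre (edgeR, adjusted p below 0.05). The erythroid markers Hba-a1 and Hbb-b1 were listed at 0 in every library. Of 8 myeloid progenitor markers 2 were lower in Mx1-Cre and 1 in Vav-Cre by the same test, and their sum was 444 to 710 CPM in wild type libraries, 162 to 214 in those of Mx1-Cre and 155 to 376 in those of Vav-Cre. The summed mast cell and basophil markers were 9.94 to 13.4 CPM in wild type libraries, 24.7 to 41.2 in those of Mx1-Cre, and 16.5 and 241 in those of Vav-Cre. Every knockout-labelled library thus lay above every wild type library. Of the 4 tested, 2 were called higher with both lines averaged, 0 in Mx1-Cre and 1 in Vav-Cre by the same test. Over all 8 libraries the other marker sums were 314 to 1440 CPM for neutrophils and monocytes, 321 to 875 for megakaryocytes, 18.0 to 47.6 for erythroid cells, 35.4 to 83.2 for B cells, 56.5 to 169 for T and NK cells and 38.4 to 83.1 for stroma and endothelium. Among these, 1 megakaryocyte marker was lower in Mx1-Cre and 1 erythroid marker in Vav-Cre by the same test. The part of all these cell types in the results below was not tested. In such bulk samples fewer cells of a type and less RNA per cell cannot be told apart.

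Proteasome genes were expressed in every library at levels that kept their order across groups. Summed over the 47 genes they made up 6460, 7450 and 7020 CPM in wild type libraries, 7560, 7210 and 8590 in those of Mx1-Cre, and 7220 and 6280 in those of Vav-Cre. Per kilobase of exon, the highest level was that of Psma7, an alpha ring gene, at 323 CPM per kilobase over all libraries, followed by the beta ring genes Psmb2 (315) and Psmb6 (267). The lowest was that of Psmd3, a scaffold of the regulatory lid, at 12.6 CPM per kilobase, followed by Psma3 (14.3) and Psma8 (15.9). By class, the median level per kilobase was 94.7 in the 15 core genes, 116 in the 6 regulatory ATPases, 73.4 in the 11 regulatory non-ATPases, 119 in the 3 immunoproteasome genes and 42.4 in the 4 activators. Transcripts of subunits that sit in the particle in equal number thus differed widely in level per kilobase. The rank order of the 47 genes by this level correlated at a Spearman rho of 0.985 between wild type and Mx1-Cre means and 0.981 between wild type and Vav-Cre means, across genes that share libraries.

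Libraries of the same group scattered little for most members. The SD of log2 levels within groups was 0.17 at the median of the 47 genes and lowest for Psmd1 (0.0744), which encodes a large scaffold of the regulatory base. The 3 wild type libraries held Psmd1 at 276, 274 and 273 CPM. At the other end stood Psma8 (1.72), Psmd3 (0.471), Psmb4 (0.387) and the core assembly chaperone gene Psmg4 (0.363).

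The spread within wild type ran with transcript length. In wild type replicate 1 members of longer exonic length stood higher relative to the wild type mean (Spearman rho 0.55 across 47 genes), and in wild type replicate 2 those of shorter length did (rho -0.60). Over the 12481 tested genes with a length the same values were 0.22 and -0.30. The mean is taken over these same wild type libraries, so a gene above it in some library must lie below it in another. The opposite signs in replicates 1 and 2 are thus in part built in. The 23 members under 1500 bases had a median of -0.17 on the log2 scale in replicate 1 and 0.14 in replicate 2, and the 24 longer members -0.05 and 0.09. In the other libraries rho across members ranged from -0.20 (wild type replicate 3) to 0.42 (Mx1-Cre replicate 2). The part of this difference between libraries in the comparisons below was not tested.

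**Figure D1:**
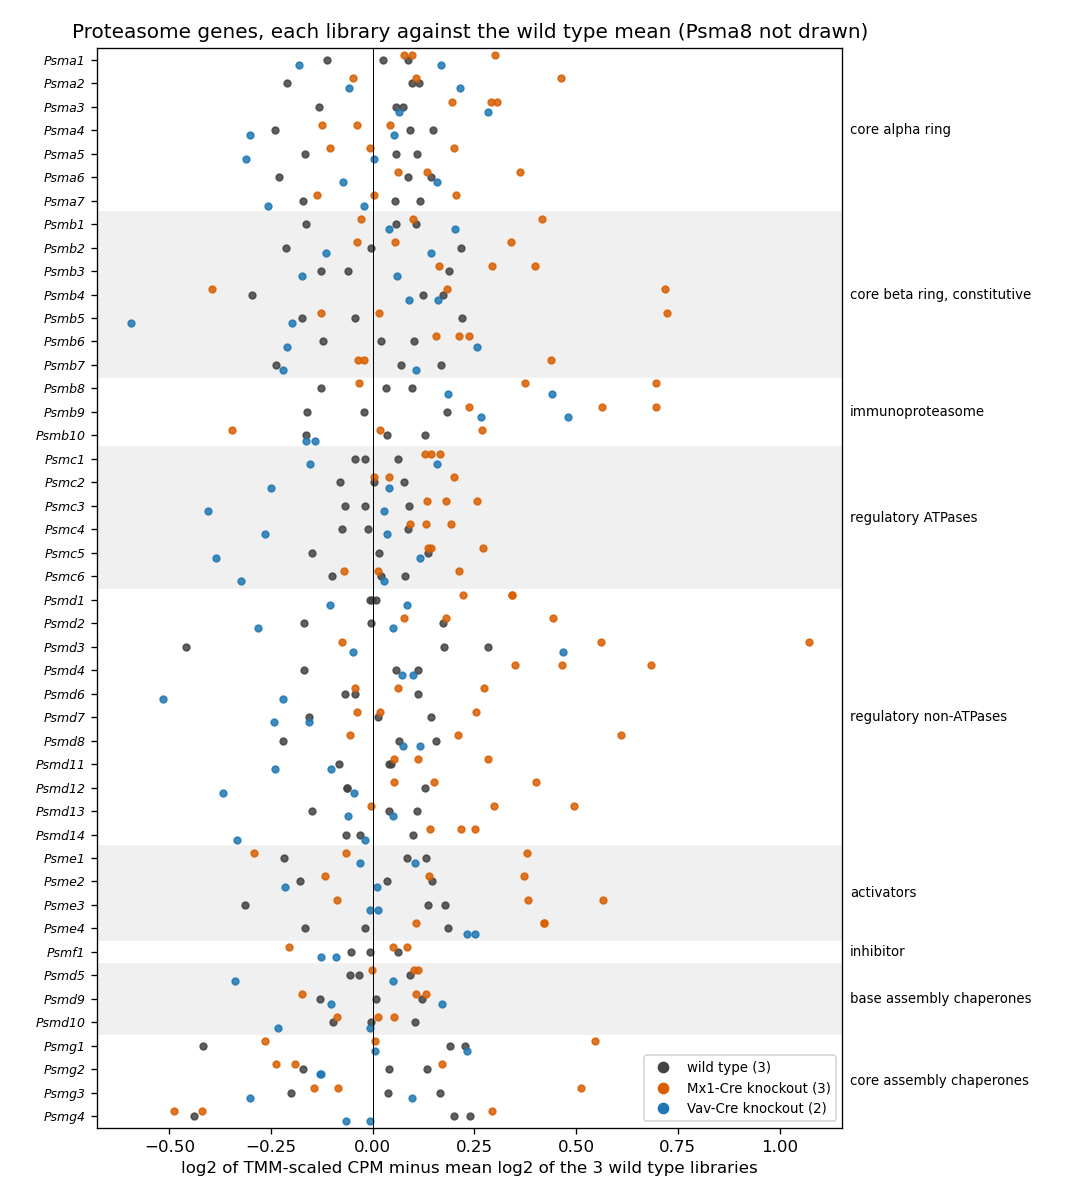
Each row is a proteasome gene, and each point a library, placed by its log2 level (TMM-scaled CPM) minus the mean log2 level of the 3 wild type libraries; black points are wild type, orange Mx1-Cre and blue Vav-Cre libraries. With this scaling all points of Psmb9 from knockout-labelled libraries lie right of the wild type points (by library totals 1 would not), and all 3 Mx1-Cre points of Psmd1 and Psmd4 do, while points of most genes overlap between groups. Psma8 is not drawn.

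To ask whether stem cells labelled Huwe1 knockout altered their proteasome genes, both lines were averaged and compared with wild type. No member passed at an adjusted p below 0.05 (edgeR quasi-likelihood test, Benjamini-Hochberg over 14086 genes), where 0.547% of all genes were called higher and 2.1% lower. At an unadjusted p below 0.05 there were 3 members, Psmb9 and Psmd4 higher and Psma8 lower, and DESeq2 called 0 with 4 at that level. Of all genes, 6.11% were higher and 10.4% lower at the unadjusted p, so the members' shares, 4.26% and 2.13%, stood below the background in both directions. The 47 folds had a median of 0.03 on the log2 scale, 31 of them positive, against a median of 0.00 and 50% positive over all genes. With library totals in place of TMM, 21 folds were positive and the median was -0.02, beside -0.05 over all genes. The median was also negative without wild type replicate 1 (-0.02) and without Vav-Cre replicate 1 (-0.04). For 46 of 47 genes the 95% interval of the fold change lay within a 2-fold change in either direction, and for 40 within a 1.5-fold change. Psma8 was the exception at 2-fold.

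With TMM the groups did not overlap for Psmb9, higher in all 5 knockout-labelled libraries, and for Psma8, lower in all 5. Over all genes 4.41% lay wholly above and 7.28% wholly below wild type in this way. By library totals Psma8 was still lower in all 5, and no member was higher in all 5.

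Among the 3 immunoproteasome genes, Psmb8 and Psmb9 had positive folds in both lines and Psmb10 did not. Psmb9, an inducible catalytic subunit, had 107, 136 and 118 CPM in wild type libraries, 177, 141 and 194 in those of Mx1-Cre, and 144 and 167 in those of Vav-Cre. Every knockout-labelled library was thus above the highest wild type library, the closest pair being 141 and 136. By library totals that pair turns to 135 and 139, and the groups overlap. Its log2 fold change was 0.44 ± 0.14 (SE) with both lines averaged (edgeR adjusted p = 0.15), 0.50 ± 0.15 in Mx1-Cre (adjusted p = 0.126) and 0.37 ± 0.17 in Vav-Cre libraries (adjusted p = 0.383). None of the 3 passed, and DESeq2 called the Mx1-Cre fold (0.51, adjusted p = 0.033).

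Psmb8, the inducible chymotrypsin-like subunit, had 161, 188 and 180 CPM in wild type libraries, 228, 172 and 285 in those of Mx1-Cre, and 200 and 239 in those of Vav-Cre. Mx1-Cre replicate 2 lay within the wild type range and the other 4 knockout-labelled libraries above it. Its fold change was 0.37 ± 0.18 in Mx1-Cre (edgeR adjusted p = 0.338) and 0.31 ± 0.20 in Vav-Cre libraries (adjusted p = 0.542). Psmb10, the third inducible subunit, had 143, 175 and 164 CPM in wild type libraries, 162, 126 and 193 in those of Mx1-Cre, and 145 and 143 in those of Vav-Cre. Its groups overlapped, with folds of -0.0041 ± 0.16 and -0.16 ± 0.18 (edgeR adjusted p = 0.995 and 0.784).

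In the GENCODE gene models an exon of Psmb9 overlaps one of Tap1 on the opposite strand. The libraries carry no strand information, so reads from the shared bases cannot be assigned to either gene. Tap1, which encodes a peptide transporter that loads antigen, had 143, 116 and 121 CPM in wild type libraries, 235, 147 and 193 in those of Mx1-Cre, and 139 and 265 in those of Vav-Cre. Its groups overlapped, since Vav-Cre replicate 1 lay below wild type replicate 1, and its fold with both lines averaged was 0.64 ± 0.22 (edgeR adjusted p = 0.177). Exons of 12 members in all overlap another annotated gene, among them Psmb8 (an antisense transcript), Psmd1 (a gene on the same strand), Psmd13 (Sirt3), Psme1 (Emc9) and Psmc3 (Slc39a13), and for these too the reads cannot be told apart.

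The constitutive catalytic partners had folds between -0.39 and 0.24. Psmb5, the chymotrypsin-like subunit that Psmb8 replaces, had 24.2, 31.8 and 26.5 CPM in wild type libraries, 27.6, 25.0 and 45.1 in those of Mx1-Cre, and 23.8 and 18.1 in those of Vav-Cre. Both Vav-Cre libraries were below all wild type libraries, by little in replicate 1, and the fold was -0.39 ± 0.28 (edgeR adjusted p = 0.592). Psmb6, the caspase-like subunit, had 184, 215 and 203 CPM, then 232, 223 and 236, then 239 and 173 in the same order. With TMM, though not by library totals, all its Mx1-Cre libraries were above wild type, and the 2 Vav-Cre libraries on either side, with folds of 0.20 ± 0.14 and 0.04 ± 0.16. Psmb7, the trypsin-like subunit, had 91.3, 121 and 113 CPM, then 106, 105 and 146, then 116 and 92.4, with overlapping groups and folds of 0.13 ± 0.17 and -0.06 ± 0.19. The edgeR adjusted p-values of Psmb6 were 0.539 and 0.956, and those of Psmb7 0.767 and 0.934.

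Taking the ratio of an inducible subunit to its partner within each library removes the scaling between libraries. The log2 ratio of Psmb8 to Psmb5 was 2.73, 2.56 and 2.77 in wild type libraries, 3.04, 2.78 and 2.66 in those of Mx1-Cre, and 3.06 and 3.72 in those of Vav-Cre. The ratio was above every wild type library in 4 of 5 knockout-labelled libraries, in 1 of them by 2.78 against 2.77, and the difference in means was 0.37 (two-sided exact permutation test over 8 libraries, p = 0.214). It was 0.14 for Mx1-Cre and 0.71 for Vav-Cre, and 0.20 over both without Vav-Cre replicate 2. The ratio of Psmb9 to Psmb6 was -0.78, -0.66 and -0.78 in wild type libraries, -0.39, -0.66 and -0.29 in those of Mx1-Cre, and -0.73 and -0.05 in those of Vav-Cre, a difference of 0.32 (exact p = 0.107). For Psmb10 to Psmb7 it was 0.65, 0.53 and 0.53, then 0.60, 0.26 and 0.40, then 0.33 and 0.63, a difference of -0.12 (exact p = 0.286). Adjusted over the 3 pairs each exact p was 0.286, with 0.0179 the smallest that 5 against 3 libraries allow. Within a line the smallest p is 0.1, so no line was tested alone. Per kilobase, Psmb8 was 3.55-fold the level of Psmb5 in wild type, Psmb10 1.31-fold that of Psmb7, and Psmb9 0.353-fold that of Psmb6. By this measure the 3 sites differed in which of the transcripts was the higher. Such a comparison of different genes also depends on annotated length and on which reads were counted, and the counting settings were not given. In wild type Psmb5 stood at 30.6 CPM per kilobase, beside 305 for the beta ring gene Psmb2.

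**Figure D2:**
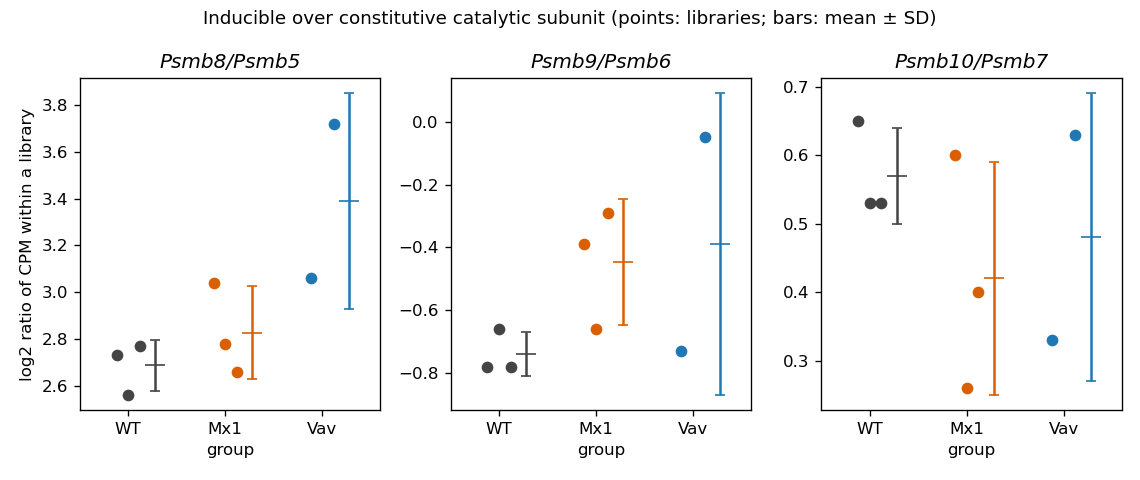
Log2 ratio of CPM of each inducible catalytic subunit to the constitutive subunit it replaces, within each library, by group; points are libraries and the bars beside them mean ± SD, and each panel has its own vertical axis. Psmb8 to Psmb5 reaches 3.72 and Psmb9 to Psmb6 -0.05 in Vav-Cre replicate 2, the highest value of each panel, while Psmb10 to Psmb7 overlaps between groups.

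In the Mx1-Cre libraries most members had small positive folds. Against wild type, 40 of 47 folds were positive with a median of 0.15 on the log2 scale, where all genes had a median of 0.01 and 51.3% positive. No member passed (edgeR), against 0.39% of all genes called higher and 2.1% called lower, and 4 had an unadjusted p below 0.05, all higher, against 6.17% of all genes. DESeq2 called 2 of the members, Psmb9 and Psmd4, with 5 at an unadjusted p below 0.05. With library totals in place of TMM, 33 folds were positive and the median was 0.07 beside -0.07 over all genes, where both medians are lower than with TMM. The median was 0.09 without wild type replicate 1 and 0.03, with 29 positive, without Mx1-Cre replicate 3.

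All 17 genes of the regulatory particle had positive folds in the Mx1-Cre libraries, with a median of 0.19, or 15 of 17 with a median of 0.11 by library totals. The 17 leave out Psmd5, Psmd9 and Psmd10, counted here as base assembly chaperone genes, with folds of 0.07, 0.02 and -0.0085. Psmd4, a ubiquitin receptor of the particle, had 111, 107 and 91.4 CPM in wild type libraries, 142, 165 and 131 in those of Mx1-Cre, and 108 and 110 in those of Vav-Cre. The 3 Mx1-Cre libraries lay above all others and the Vav-Cre libraries inside the wild type range. The fold in Mx1-Cre was 0.50 ± 0.13, which did not pass in edgeR (adjusted p = 0.0852) and passed in DESeq2 (adjusted p = 0.0154), and in Vav-Cre it was 0.08 ± 0.15 (edgeR adjusted p = 0.876). Psmd1 had 348, 320 and 348 CPM in Mx1-Cre libraries above 276, 274 and 273 in wild type, with 291 and 255 in Vav-Cre libraries. Its fold in Mx1-Cre was 0.30 ± 0.11 (edgeR adjusted p = 0.209). Psmd3 had a fold of 0.56 ± 0.30, which ranged from 0.25 without Mx1-Cre replicate 3 to 0.82 without Mx1-Cre replicate 2, with overlapping groups: 15.8, 26.4 and 24.5 CPM in wild type and 32.0, 20.6 and 45.6 in Mx1-Cre libraries (edgeR adjusted p = 0.396). Without wild type replicate 1 the fold was 0.36. Its Vav-Cre libraries held 21.0 and 30.0 CPM (0.20 ± 0.33, adjusted p = 0.865).

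The libraries of the 2 groups did not overlap for 10 members higher in Mx1-Cre than in wild type, which is 21.3% of members against 10.9% of all genes. With DESeq2 size factors the count was 12 (25.5% against 11.6%), and by library totals 3, Psma3, Psmd1 and Psmd4, which is 6.38% against 6.95% of all genes. The excess over the background thus rests on the scaling. With TMM the 10 were Psma3, Psmb6, Psmb9, Psmc1, Psmc3, Psmc4, Psmd1, Psmd4, Psmd11 and Psmd14. The deubiquitinase gene Psmd14, whose product cuts ubiquitin chains off the substrate, had 239, 252 and 258 CPM against 207, 232 and 212 with TMM. For Psma8 alone were the Mx1-Cre libraries all lower, 2.13% of members against 14.8% of all genes.

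Core genes had folds of similar size, none of them with a small p. Of the 15 core genes 13 had positive folds in Mx1-Cre (median 0.17, or 11 and a median of 0.09 by library totals), from -0.68 for Psma8 to 0.28 for Psmb3. Outside Psma8 and Psma4 (-0.04 ± 0.15) all were positive, and none of the 15 had an unadjusted p below 0.05. The ring genes Psma1, Psma2, Psma3, Psma5, Psma6 and Psma7, and Psmb1, Psmb2, Psmb3 and Psmb4, had adjusted p-values of at least 0.361 in edgeR. The core assembly chaperone genes Psmg1, Psmg2, Psmg3 and Psmg4 had a median fold of 0.01, and the base assembly chaperone genes Psmd5, Psmd9 and Psmd10 0.02. By library totals these medians were -0.06 and -0.05, and without Mx1-Cre replicate 3 they were -0.18 and -0.03, so their sign is not settled. The inhibitor gene Psmf1 stood at -0.02.

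Over all 8 libraries the core genes not given singly ranged from 33.5 to 45.4 CPM (Psma3), 47.3 to 67.4 (Psma5), 115 to 157 (Psma4), 143 to 228 (Psma2), 227 to 342 (Psma6) and 259 to 362 (Psma1) in the alpha ring. In the beta ring the ranges were 48.1 to 104 CPM (Psmb4), 59.8 to 88.9 (Psmb3), 204 to 305 (Psmb1) and 224 to 329 (Psmb2). Among the regulatory ATPases Psmc5 ranged from 113 to 178 CPM, Psmc1 from 161 to 201, Psmc2 from 161 to 220, Psmc6 from 167 to 242, Psmc3 from 206 to 326 and Psmc4 from 228 to 313. In all 6 ATPase genes the lowest library was Vav-Cre replicate 2. Among the non-ATPases Psmd13 ranged from 62.7 to 97.9 CPM, Psmd12 from 136 to 232, Psmd8 from 141 to 251, Psmd2 from 170 to 281 and Psmd7 from 211 to 298. The assembly chaperone genes ranged from 70.0 to 88.4 CPM (Psmd10), 107 to 146 (Psmd5), 20.6 to 40.2 (Psmg1), 87.4 to 116 (Psmg2) and 41.7 to 73.3 (Psmg3).

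Against wild type, the Vav-Cre libraries had folds of either sign, 18 of 47 positive and 29 negative with a median of -0.07. Over all genes the median was -0.01, with 49% positive and 51% negative. The comparison shares its 3 wild type libraries with the one before. Of the 17 regulatory genes 13 had negative folds (median -0.11), and of the 15 core genes 7, or 8 with DESeq2 size factors and 9 by library totals. No member passed (edgeR and DESeq2), against 0.192% of all genes called higher and 0.319% lower, and Psma8 and Psmd6 had an unadjusted p below 0.05 in edgeR, both lower, against 7.64% of all genes lower and 5.76% higher, and DESeq2 also had 2. The libraries did not overlap for 3 members higher (Psmb8, Psmb9 and Psme4, background 15.6%) and 5 lower (Psma8, Psmb5, Psmd6, Psmd11 and Psmf1, background 17.1%), shares under the background. Psmd6, a lid subunit gene, had 180, 204 and 183 CPM in wild type libraries, 197, 183 and 228 in those of Mx1-Cre, and 162 and 132 in those of Vav-Cre. Both Vav-Cre libraries were below all others, and the fold was -0.36 ± 0.16 (edgeR adjusted p = 0.346). The member median was 0.05 without Vav-Cre replicate 2, -0.17 without Vav-Cre replicate 1, -0.12 without wild type replicate 1 and -0.01 without wild type replicate 2. The 2 libraries thus stood apart, with 32 of 47 members above the wild type mean in replicate 1 and 11 in replicate 2. In that second library the regulatory ATPase genes were all below the wild type mean, with a median of -0.30.

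**Figure D3:**
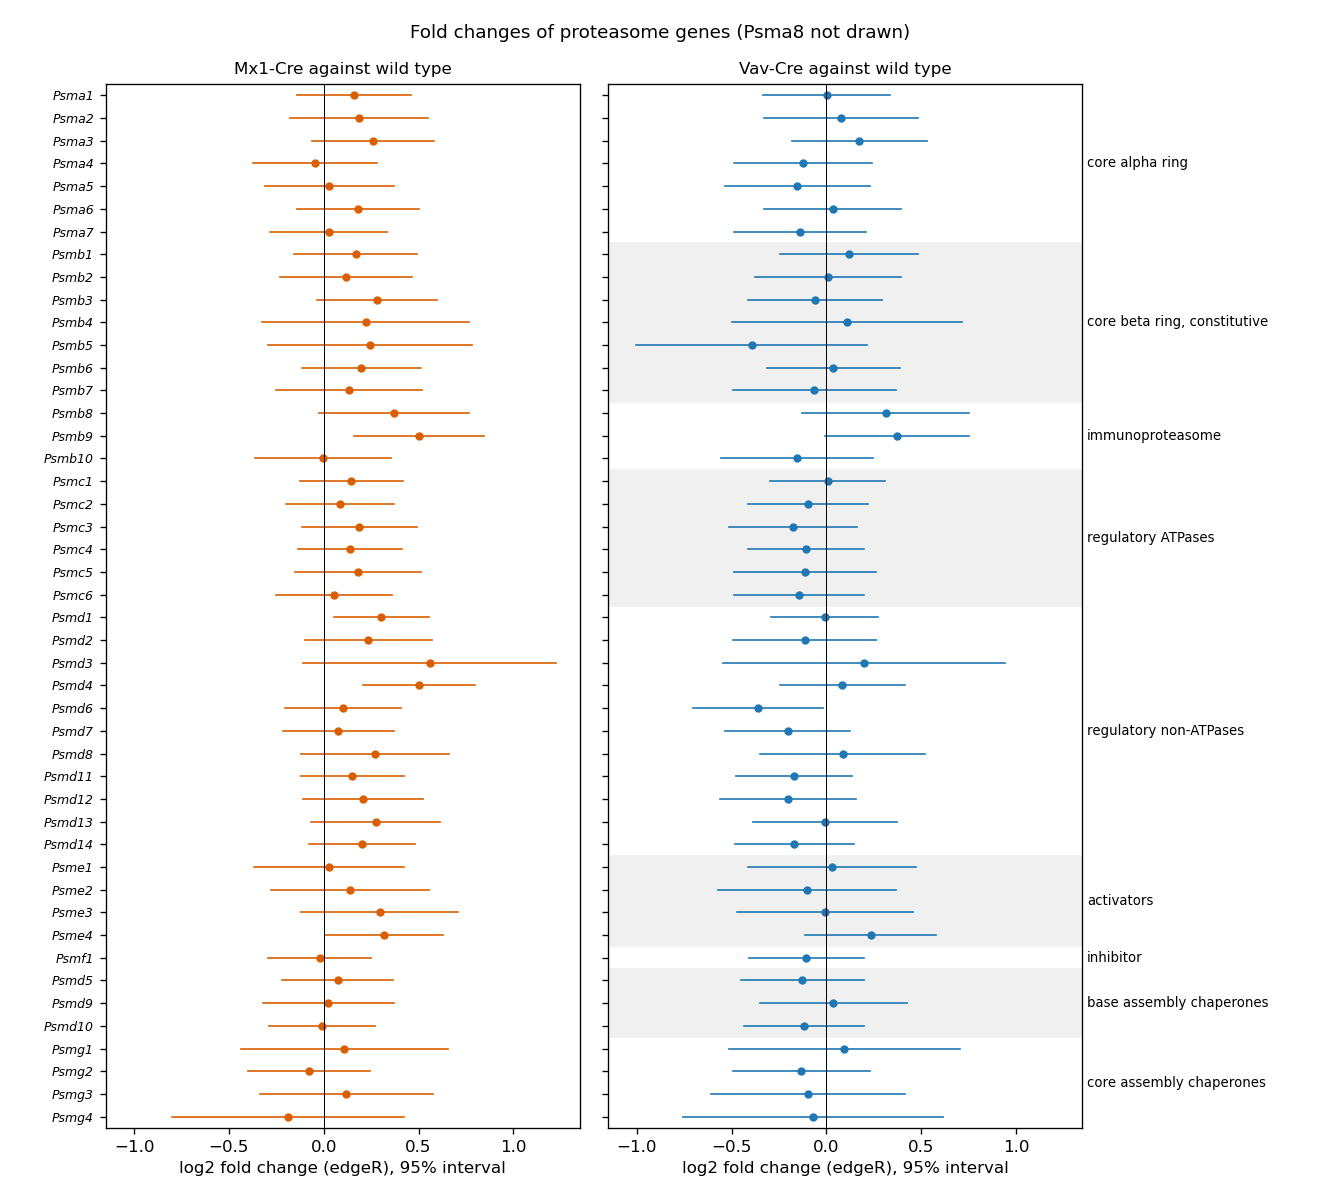
Log2 fold change against wild type, with its 95% interval, of each proteasome gene in Mx1-Cre (left) and Vav-Cre libraries (right), both from the same edgeR fit and against the same 3 wild type libraries. In Mx1-Cre all 17 regulatory genes lie right of 0, with Psmd4 at 0.50, and in Vav-Cre 4 of the 17 do. Psma8, at -0.68 in Mx1-Cre and -2.38 in Vav-Cre, is not drawn.

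The 2 knockout lines were then compared with each other, to ask whether constitutive and induced deletion differed. The fold of Vav-Cre minus Mx1-Cre was negative for 44 of 47 members (median -0.18), or 40 by library totals, beside a median of 0.01 with 49.3% negative and 50.6% positive over all genes. No member passed in edgeR or DESeq2, with 0.114% of all genes called higher and 0.0568% lower. At an unadjusted p below 0.05 there were 8 members in edgeR, all lower, which is 17% of members against 5.96% of all genes lower and 7.31% higher, and 9 in DESeq2. In edgeR 7 of the 8 belonged to the 17 regulatory genes, of which all 17 had negative folds under each of the 3 scalings (median -0.31).

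Psmd6 (-0.46 ± 0.16, edgeR adjusted p = 0.251), Psmd4 (-0.42 ± 0.15, adjusted p = 0.28), the lid gene Psmd12 (-0.41 ± 0.16), Psmd14 (-0.37 ± 0.14), the ATPase gene Psmc3 (-0.36 ± 0.15), the lid gene Psmd11 (-0.32 ± 0.14) and Psmd1 (-0.31 ± 0.13) made up the 7, and Psmb5 (-0.64 ± 0.28) was the eighth. All Vav-Cre libraries lay below all Mx1-Cre libraries for 14 members, 29.8% against 12% of all genes (12 members, 25.5% against 9.23%, by library totals), and for 0 members did they all lie above, against 13.8%. The 14 were Psma8, Psmb3, Psmb5, Psmc3, Psmc4, Psmc5, Psmd1, Psmd2, Psmd4, Psmd6, Psmd7, Psmd11, Psmd12 and Psmd14. The 3 positive folds were those of Psmd9, Psme1 and Psmg4, at 0.01, 0.0033 and 0.12. Psmd9, a base assembly chaperone gene, had 48.8, 40.2 and 49.6 CPM in Mx1-Cre libraries and 51.0 and 42.2 in those of Vav-Cre, beside 41.4, 49.3 and 45.6 in wild type. Psmg4 had 9.69, 9.25 and 15.9 CPM in Mx1-Cre libraries and 12.9 and 12.4 in those of Vav-Cre, beside 9.57, 15.3 and 14.9 in wild type. Neither gene separated the groups (edgeR adjusted p = 0.988 and 0.916). Over the members the median was -0.09 without Vav-Cre replicate 2, -0.31 without Vav-Cre replicate 1 and -0.08 without Mx1-Cre replicate 3.

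Levels of proliferation genes were also higher in the Mx1-Cre than in the Vav-Cre libraries. The 15 listed cell cycle genes, such as Mki67 and the Mcm genes, summed to 4450, 4630 and 4480 CPM in wild type libraries, 6570, 5920 and 6380 in those of Mx1-Cre, and 5380 and 3130 in those of Vav-Cre. All 15 had positive folds in Mx1-Cre (median 0.43) and negative folds in Vav-Cre minus Mx1-Cre (median -0.62), with 0 called in either (edgeR). At an unadjusted p below 0.05 there were 7 and 10, where 6.17% of all genes were higher in Mx1-Cre and 5.96% lower in Vav-Cre minus Mx1-Cre. The median member stood at 0.10, -0.03 and 0.29 above the wild type mean in the Mx1-Cre libraries and at 0.05 and -0.16 in the Vav-Cre libraries. Vav-Cre replicate 2 was lowest in both measures, while Mx1-Cre replicate 2, with 5920 CPM of proliferation genes, held members at the wild type level. Within wild type the median member stood at -0.13 in replicate 1 and 0.11 in replicate 2, at similar proliferation sums of 4450 and 4630 CPM. The part of proliferation in the proteasome folds was not tested.

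**Figure D4:**
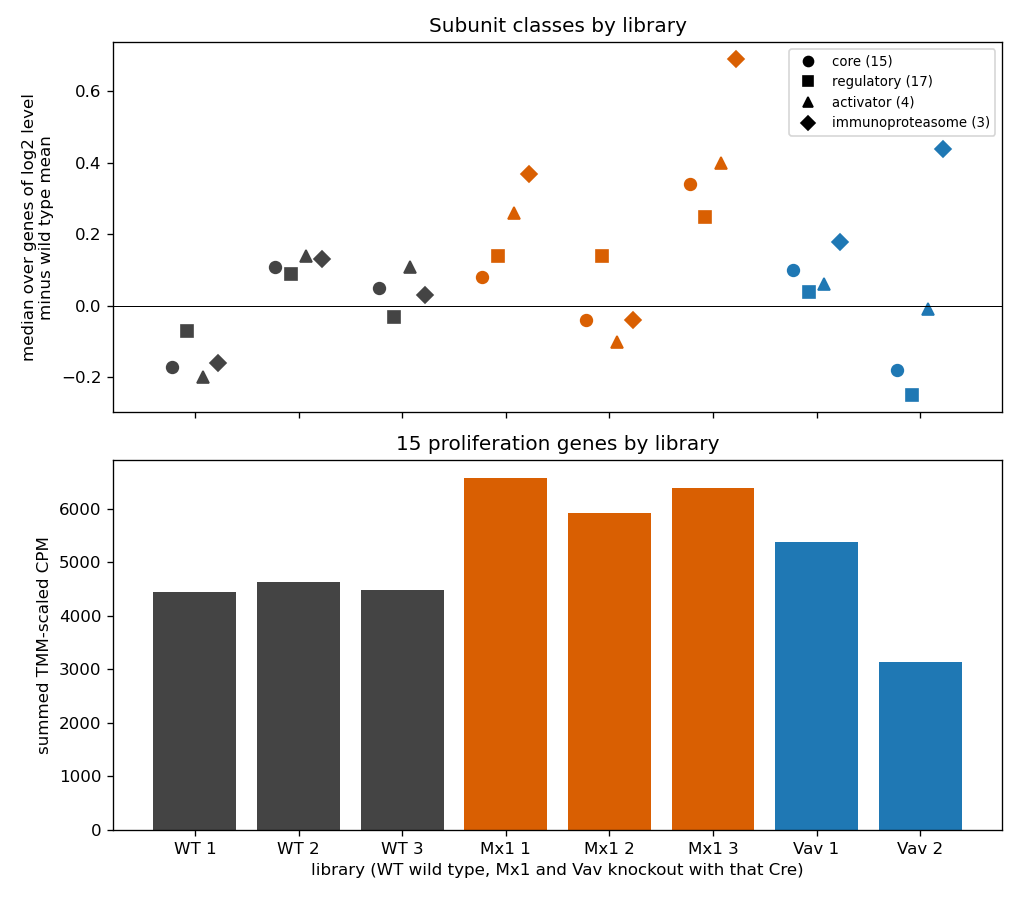
Top, median over the genes of each subunit class of the log2 level minus the wild type mean, by library; bottom, summed TMM-scaled CPM of 15 proliferation genes, from 0. Regulatory genes stand at 0.14, 0.14 and 0.25 in the Mx1-Cre libraries and -0.25 in Vav-Cre replicate 2, where the proliferation sum is 3130 and the immunoproteasome median 0.44.

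In Vav-Cre replicate 2 the median of the 3 immunoproteasome genes was 0.44 above the wild type mean, beside -0.18 for the core and -0.25 for the regulatory genes of the same library. Psmb8 and Psmb9 stood above the wild type mean there, and Psmb10, at 143 CPM against a wild type mean of 161, below it. In Mx1-Cre replicate 3 every class median stood above the wild type mean, the immunoproteasome median reaching 0.69, the core 0.34 and the regulatory genes 0.25. In Mx1-Cre replicate 2 the immunoproteasome median was -0.04, so the Mx1-Cre libraries spread from -0.04 to 0.69.

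The 4 activator genes had positive folds in Mx1-Cre (3 by library totals) and folds of either sign in Vav-Cre, none of which passed. Psme4, which encodes a single-chain nuclear activator, had 132, 119 and 152 CPM in wild type libraries, 179, 144 and 179 in those of Mx1-Cre, and 157 and 159 in those of Vav-Cre. Only Mx1-Cre replicate 2 lay within the wild type range, and the fold was 0.32 ± 0.14 in Mx1-Cre (edgeR adjusted p = 0.289) and 0.23 ± 0.16 in Vav-Cre libraries (adjusted p = 0.567). Psme3, which encodes the nuclear ring-shaped activator, had 118, 166 and 161 CPM in wild type libraries, 191, 138 and 217 in those of Mx1-Cre, and 146 and 148 in those of Vav-Cre, with overlapping groups. Its folds were 0.30 ± 0.19 and -0.008 ± 0.21 (edgeR adjusted p = 0.48 and 0.993).

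Psme1 and Psme2 encode the interferon-inducible activator ring. Psme1 had 197, 251 and 243 CPM in wild type libraries, 219, 187 and 298 in those of Mx1-Cre, and 246 and 224 in those of Vav-Cre, with folds of 0.03 ± 0.18 and 0.03 ± 0.20. Psme2 had 20.6, 25.8 and 23.9 CPM, then 25.7, 21.5 and 30.2, then 23.5 and 20.1, with folds of 0.14 ± 0.19 and -0.10 ± 0.21. All 4 folds had an edgeR adjusted p of at least 0.78, and their groups overlapped. Psme2 has a near copy, Psme2b, in GENCODE, so its count may miss reads that match both. The inhibitor gene Psmf1 had 124, 120 and 130 CPM in wild type libraries, 108, 132 and 129 in those of Mx1-Cre, and 114 and 117 in those of Vav-Cre. Both Vav-Cre libraries were below wild type by little, and its fold there was -0.11 ± 0.14 (edgeR adjusted p = 0.81).

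Psma8, a paralogue of Psma7 known from the testis, where it takes the place of Psma7 in the core, varied most. Its raw counts were 1574, 1151 and 1068 in wild type libraries, 727, 833 and 676 in those of Mx1-Cre, and 443 and 10 in those of Vav-Cre. Every knockout-labelled library was below every wild type library, and Vav-Cre replicate 2 nearly lacked the transcript. As scaled levels, the wild type libraries averaged 41.0 ± 9.77 CPM (SD, n = 3) and those of Mx1-Cre 25.5 ± 4.11 (SD, n = 3), and the Vav-Cre libraries held 15.5 and 0.31. Psma7, the highest member per kilobase, overlapped between groups, with 343, 418 and 401 CPM in wild type libraries, 387, 351 and 445 in those of Mx1-Cre, and 380 and 323 in those of Vav-Cre. Its folds were 0.03 ± 0.14 in Mx1-Cre and -0.14 ± 0.16 in Vav-Cre (edgeR adjusted p = 0.95 and 0.775).

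The fitted fold of Psma8 was -0.68 ± 0.76 in Mx1-Cre (edgeR adjusted p = 0.723) and -2.38 ± 0.94 in Vav-Cre (adjusted p = 0.302), and -1.53 ± 0.68 with both lines averaged (adjusted p = 0.296). None passed with all libraries in the fit, whose estimate of spread for this gene includes the gap between the 2 Vav-Cre libraries. Without Vav-Cre replicate 2 the averaged fold was -1.04 ± 0.21 and passed (edgeR adjusted p = 0.0408). Without Vav-Cre replicate 1 it was -3.86 ± 0.28 and passed too (adjusted p = 0.00117), with the remaining library assumed to vary like the other groups. The genes to either side, chosen after these values were seen, had similar or more reads in Vav-Cre replicate 2: Ss18 had 4205 counts there against 4582 in replicate 1, and Taf4b 901 against 649.

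**Figure D5:**
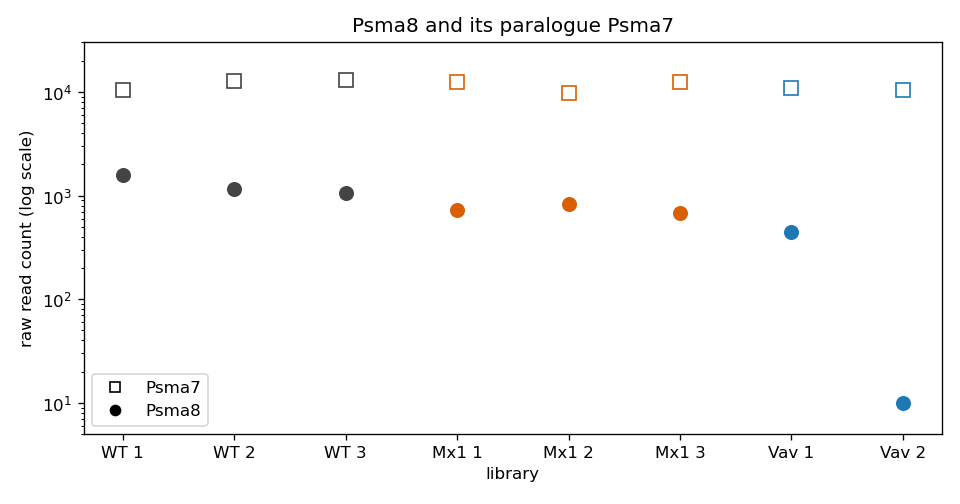
Raw read counts, on a log axis, of Psma8 (filled circles) and its paralogue Psma7 (open squares) in each library. Psma8 lies at 1574, 1151 and 1068 in wild type and at 443 and 10 in the Vav-Cre libraries, while Psma7 stays between 9689 and 12882.

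Other listed genes of the pathway also gave no call at an adjusted p below 0.05 in edgeR. Their counts at an unadjusted p below 0.05 stand beside these shares of all genes. With both lines averaged 6.11% were higher and 10.4% lower, and in Mx1-Cre 6.17% and 10.5%. In Vav-Cre the shares were 5.76% and 7.64%, and in Vav-Cre minus Mx1-Cre 7.31% and 5.96%. Of 12 tested proteasome components and cofactors outside the name pattern, 0 passed in any of the 4 comparisons (edgeR), and at an unadjusted p below 0.05 there were 0 with both lines averaged, 1 in Mx1-Cre (Uchl5), 1 in Vav-Cre (Zfand5) and 3 in Vav-Cre minus Mx1-Cre. Of those 3, Zfand5 (0.56 ± 0.18, edgeR adjusted p = 0.224) and Ublcp1 (0.61 ± 0.27, adjusted p = 0.36) had positive folds, opposite in sign to most members, and Uchl5 a negative one (-0.34 ± 0.15, adjusted p = 0.36). Uchl5, which encodes a deubiquitinase bound to the regulatory particle, had 101, 110 and 91.5 CPM in wild type libraries, 124, 127 and 143 in those of Mx1-Cre, and 113 and 94.5 in those of Vav-Cre. With TMM its Mx1-Cre libraries lay above all others, with a fold of 0.38 ± 0.13 (edgeR adjusted p = 0.179). Of 12 regulators of proteasome transcription 0 passed in edgeR, with 1 at an unadjusted p below 0.05 in Mx1-Cre (Nfyb) and 1 in Vav-Cre minus Mx1-Cre, and Nfe2l1, which encodes the main activator of proteasome genes, had folds of 0.12 for Mx1-Cre and -0.09 for Vav-Cre. Nfyb, an NF-Y subunit gene, had 134, 145 and 144 CPM in Mx1-Cre against 108, 107 and 105 in wild type (0.40 ± 0.13, edgeR adjusted p = 0.137). For Uchl5 and Nfyb all Mx1-Cre libraries were thus above wild type with TMM, as for 10.9% of all genes.

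Of 17 genes for ubiquitin, its activating enzymes and shuttle factors 0 passed in edgeR, with 4, 4, 3 and 3 at an unadjusted p below 0.05 with both lines averaged, in Mx1-Cre, in Vav-Cre and in Vav-Cre minus Mx1-Cre. Ubb, a polyubiquitin gene, had 2510, 2530 and 2260 CPM in wild type libraries, 3300, 3350 and 2670 in those of Mx1-Cre, and 3260 and 2770 in those of Vav-Cre, all 5 above wild type with TMM (0.33 ± 0.12 with both lines averaged, edgeR adjusted p = 0.184). Over all genes 4.41% lay wholly above wild type in this way.

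Of 13 partners of the immunoproteasome in antigen processing 0 passed in edgeR in any comparison, with 3, 4, 2 and 1 at an unadjusted p below 0.05 in the same order. Tap1, given above beside Psmb9, was among the 13.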

How the data were processed

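RNA was measured in 8 libraries, 3 wild type, 3 Mx1-Cre and 2 Vav-Cre, grouped by their titles. A SMARTer Ultra Low Input kit gave the cDNA and an unstranded NEBNext protocol the libraries, per the labels' protocols. The build mm9 and the tools TopHat, SAMtools, HTSeq and edgeR are named per the submitters' processing notes; versions and counting settings were not given in the sources used here. The deposited table holds raw read counts per gene, made by the authors. The second table, of normalized values for the same libraries, was not used. The members and all gene lists were chosen with earlier results of these data known.

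Tests used edgeR 4.0.16 under R 4.3.3 (counts as deposited, quasi-likelihood, TMM, filterByExpr with minimum count 10 and total 15, 1 model over all groups, Benjamini-Hochberg over 14086 genes, called below 0.05). Each SE was taken from the log2 fold change and the F statistic (its size over the root of F), and intervals are 95%. Total counts, 28689765 to 33202926, set the precision, and reads carry no molecular identifiers. Log2 CPM used a prior count of 2. Exonic length is the union of protein-coding exons in GENCODE vM21 and enters only levels per kilobase. Genes given in full were the 3 inducible subunits and their partners, Psme and Psmf genes, the 2 smallest p per direction and comparison, members that do not overlap wild type in both lines, and the highest and lowest per kilobase. Psmd1, Psmd11, Psmd12, Psmd14, Psmc3, Ss18 and Taf4b lie outside it and were picked with their values known. Alternatives were DESeq2 1.42.0, DESeq2 size factors, library totals, other filters, fits on 2 groups alone, each library left out in turn, a replicate block and a threshold of 0.1. The overlap of libraries under the other scalings was added after seeing the data.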

Additional observations from a re-analysis of the deposited data

Results flagged for a closer look

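With TMM scaling Psmd11, a lid gene of the regulatory particle, lay above all wild type libraries in the 3 Mx1-Cre libraries and below them in both Vav-Cre libraries, a pattern of no other member and of 0.532% of all genes tested. Its levels were 94.0, 93.7 and 86.0 CPM in wild type libraries, 94.5, 111 and 98.4 in those of Mx1-Cre, and 84.9 and 77.2 in those of Vav-Cre, so the closest libraries of neighbouring groups differed by little. The log2 fold change of Vav-Cre minus Mx1-Cre was -0.32 ± 0.14 (SE), which did not pass (edgeR adjusted p = 0.354). With DESeq2 size factors and with library totals no member had the pattern: by library totals Mx1-Cre replicate 1 held 92.2 CPM against 96.3 in wild type replicate 1.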

How the results depend on the processing

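Of 47 results that answer a comparison, 39 kept their side of the threshold, or stayed within the spread between libraries, under every alternative run. The count of members higher in Mx1-Cre than wild type, 0 in edgeR, was 2 with DESeq2 (Psmb9 and Psmd4) and 1 at an adjusted p below 0.1. Counts of lower members ranged from 0 to 1 when a library was left out, with both lines averaged (1 without either Vav-Cre library), in Vav-Cre against wild type and in Vav-Cre minus Mx1-Cre (both 1 without Vav-Cre replicate 1), the member being Psma8. Its fold without Vav-Cre replicate 1 was -7.03 in Vav-Cre and -6.35 in Vav-Cre minus Mx1-Cre. Leaving libraries out moved the median of the regulatory ATPases from -0.298 to 0.0389 in Vav-Cre and from -0.394 to -0.0539 in Vav-Cre minus Mx1-Cre, and that of the base assembly chaperones from -0.235 to 0.0523 and from -0.227 to -0.0017. The causes were not tested. In the fit with a replicate block, where same-numbered libraries share only a number (deviations of the same number correlated at -0.071 to 0.129, not above 0.1 in every pair), no member was called in any comparison, as without the block, and the member median was 0.15 in Mx1-Cre and -0.04 in Vav-Cre. A single-gene call changed in 6 of 1062 alternatives. Requiring 10 counts in all 8 libraries left 47 members. With 2 Vav-Cre libraries that stand apart, the precision of that line rests on a spread shared with the other groups.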
